A study of Mus musculus with 121 samples.

Results

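The comparison of the striatum (STR) between heterozygous (HET) and wild-type (WT) Nestin-Cre mice used 13 of the 121 libraries of the series, 7 HET and 6 WT, taken by the region and genotype in their labels. Bulk messenger RNA of adult male mice was sequenced, 1 library per mouse, from striatum taken out of brain slices. The labels give both groups the cross GDNF cKU x Nestin-Cre on a 129Ola/ICR/C57bl6 mixed background, with the genotype wt/wt for WT and wt/cKU for HET, an age of 2 months and no treatment. WT mice were littermates of the carriers. The Nestin promoter drives Cre in neural progenitors from mid-gestation, so that neurons and glia of the whole central nervous system carry the recombined allele, and the animals had been exposed to it since before birth. The 6 homozygous (HOM, cKU/cKU) striatal libraries of the same cross were kept in the fit of 19 libraries, so that all 3 genotypes shared 1 estimate of the spread. The total count per library ran from 16787962 to 22518785 in WT (median 19166272.5) and from 14457419 to 22394243 in HET (median 19195098).

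GDNF is a secreted factor that binds the co-receptor GFRA1 and signals through the receptor tyrosine kinase RET or the adhesion molecule NCAM, and it supports the midbrain dopamine neurons whose axons fill the striatum. In the adult striatum it is made chiefly by parvalbumin interneurons. Most striatal neurons are instead GABAergic projection neurons that receive the dopamine, and they divide into direct pathway cells, with the receptor Drd1 and the peptides of Tac1 and Pdyn, and indirect pathway cells, with Drd2, the adenosine receptor Adora2a and the peptide of Penk. In the conditional allele, Cre turns an inverted polyadenylation signal behind the stop codon of Gdnf into its active orientation, and the transcript then loses the native 3' untranslated region, through which the gene is held down.

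The WT libraries carried the markers of striatum. Drd1 had a median of 368 cpm (counts per library size, scaled by TMM) in WT striatum, 29.3 cpm in WT prefrontal cortex (PFC) and 3.04 cpm in WT substantia nigra (SN). Adora2a had medians of 526, 16.9 and 1.22 cpm in the same order of regions. The cortical vesicular glutamate transporter Slc17a7, looked at after the values were seen, ranged from 6.95 to 228 cpm over the WT striatal libraries, against a median of 1648 cpm in PFC, and Neurod6, another cortical marker, from 0.313 to 28.3 cpm, against a median of 96.3 cpm in PFC.

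Several libraries stood apart by markers of tissue next to the striatum. HET M4566 held a sum of 22260 cpm over the choroid plexus genes, where the other 12 WT and HET libraries lay at 624 cpm or below. HET M4564 and HET M4578 held 150.4 and 113.5 cpm over the septal and pallidal genes, and the other 11 lay at 52.2 cpm or below. WT M4609 and WT M4326 held 515 and 480 cpm over the cortical excitatory genes, and the other 11 lay at 322 cpm or below. Values without the 3 HET libraries, or without all 5, are therefore given beside many of those below, as alternatives chosen after seeing the data. The label of HOM mouse M4575 also conflicts between regions, HOM in striatum and SN but WT in PFC, and without that mouse the number of genes passing in HET versus WT was likewise 0, with 2511 at an unadjusted p under 0.05.

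**Figure D1:**
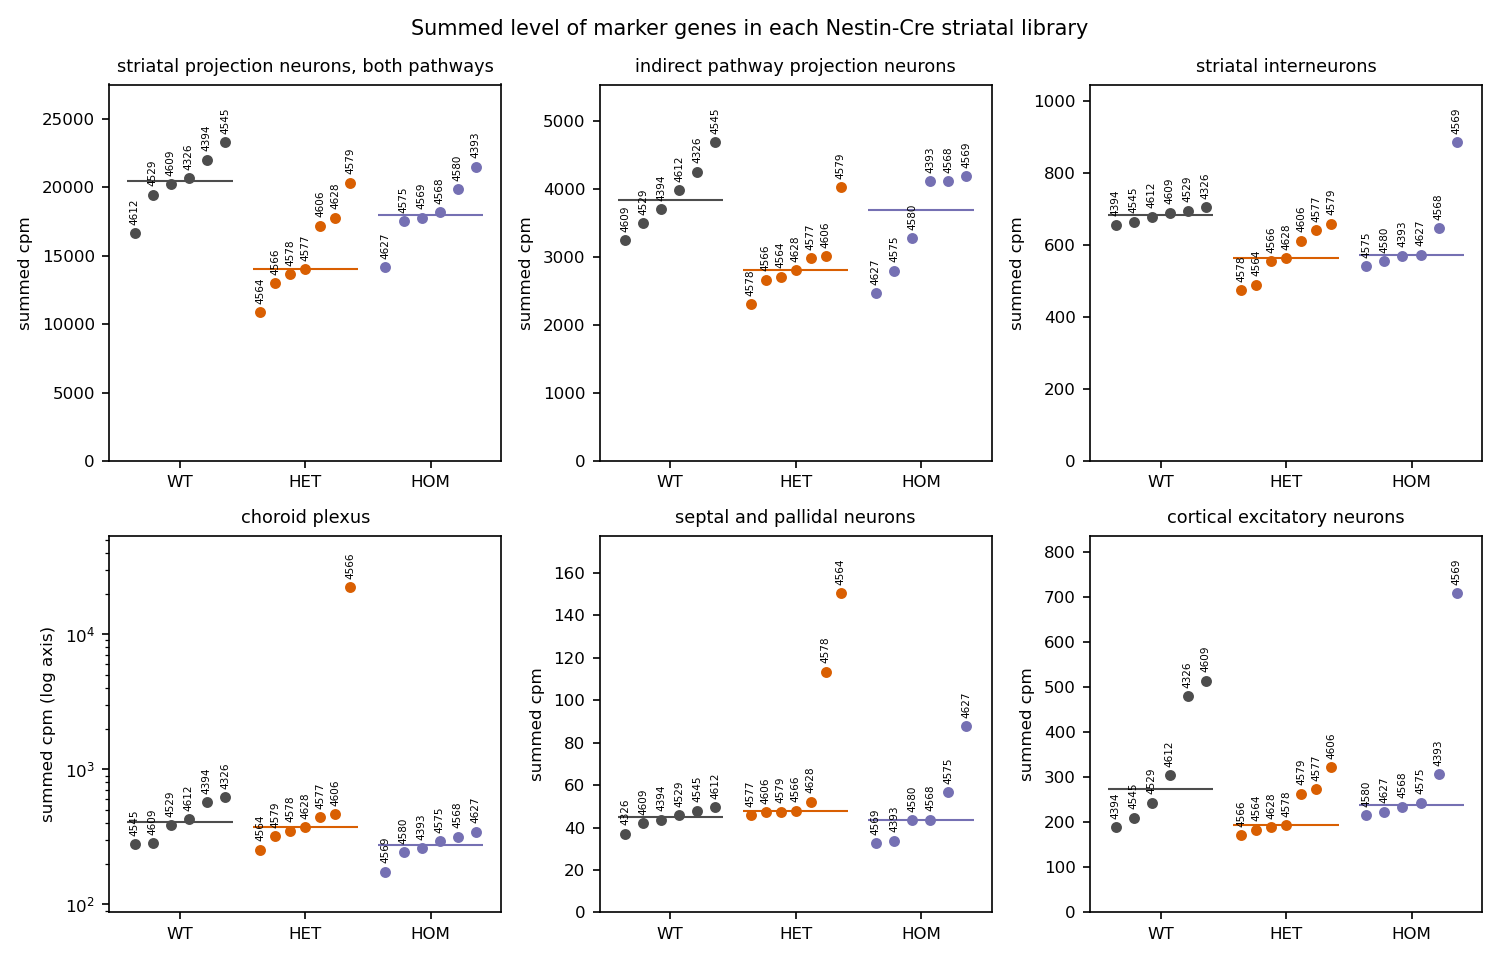
Summed cpm of 6 marker lists in each Nestin-Cre striatal library, by genotype, with mouse numbers beside the points and a line at each group's median (the choroid plexus panel has a log axis). HET M4566 stands apart for choroid plexus genes, HET M4564 and M4578 for septal and pallidal genes, and 6 of 7 HET libraries lie below the 6 WT libraries for indirect pathway and for interneuron genes.

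Gdnf itself, on chromosome 15 from 7810048 to 7837580 in mm10, was counted in every library, with 74 to 139 reads in WT and 77 to 167 in HET. Its level was 3.82, 6.07 and 7.58 cpm in WT (lowest, median and highest of 6) and 3.91, 5.5 and 9.19 cpm in HET (lowest, median and highest of 7), a log2 fold change of 0.07 (SE 0.19, edgeR quasi-likelihood adjusted p = 0.8497). The groups overlapped over most of their range, with HET M4579 above every WT library and WT M4612 below every HET library. The log2 fold change ran from -0.05 to 0.16 when 1 library was left out at a time, and was negative without HET M4579 (-0.05) and without WT M4612 (-0.03). HOM mice had 5.61, 6.75 and 9.62 cpm, a log2 fold change of 0.28 against the same WT libraries. Of the 4867 exon bases over which Gdnf reads were counted, 2748 (56.5%) lie behind the last stop codon, in the region that the recombined allele's transcript lacks, so a read count over all exons does not measure transcripts of both alleles alike. The table holds 0 other genes that overlap Gdnf, but whether reads were counted by strand is not given in the sources used here, so antisense reads may be among its counts.

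Over the 14494 genes tested, 0 (0.0%) passed an adjusted p of 0.1 in edgeR's quasi-likelihood test of HET versus WT, and the lowest adjusted p was 0.1385, shared by 10 genes. At an unadjusted p under 0.05 there were 2513 genes (17.3%), 1396 higher (9.63%) and 1117 lower (7.71%) in HET. With 1 library left out at a time this number ran from 1666 (11.5%, without HET M4578) to 3093 (21.4%, without WT M4609), so the background for every list below depends on single libraries too. The likelihood ratio test of edgeR called 1242 genes at an adjusted p under 0.1 (8.57%), 809 higher (5.58%) and 433 lower (2.99%), and DESeq2 called 535, 266 higher and 269 lower. The quasi-likelihood count was 8 with the HOM libraries left out of the fit, 1082 with all regions of these mice in 1 fit, 667 without HET M4579, 299 without WT M4612, 3 without HET M4628 (among them Acvrl1 and Gm5089) and 1 without HET M4606 (Gm5089). Without the 3 HET libraries that stood apart, 0 genes passed. Of 14376 then tested, 993 (6.91%) had an unadjusted p under 0.05, 580 higher and 413 lower. Without all 5 libraries 0 passed, and 944 of 14338 (6.58%) were at that level, 577 higher and 367 lower. List counts given below for these settings are to be read against these numbers. Of the 2513 genes, 2488 were still tested without the 3 HET libraries, 2471 of them with the same sign and 784 with an unadjusted p under 0.05. The 2513 were chosen in a fit that holds the remaining libraries too, so a kept sign was likely from the outset. Values below are thus differences that did not pass, set beside a background of 51.9% of tested genes above 0 and a median log2 fold change of 0.01. List counts at an unadjusted p under 0.05 are likewise set beside the 9.63% of all genes higher and 7.71% lower.

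Among the higher genes nearest to passing, Pdk4 encodes a kinase that shuts down pyruvate dehydrogenase and so spares glucose, and its level was 10.4, 12.5 and 14.7 cpm in WT and 16.1, 17.6 and 21.6 cpm in HET (lowest, median, highest), a log2 fold change of 0.56 (SE 0.12, adjusted p = 0.1385). Every HET library lay above every WT library. Ivd, the mitochondrial isovaleryl-CoA dehydrogenase of leucine breakdown, had 44.1, 48.7 and 59.5 cpm in WT and 61.3, 67.3 and 79.3 cpm in HET, a log2 fold change of 0.47 (SE 0.10, adjusted p = 0.1404), again with no overlap. Rftn1 encodes raftlin, a protein of lipid rafts, and had 10.3, 11.1 and 13.4 cpm in WT and 13.6, 18.9 and 23.6 cpm in HET (log2 fold change 0.67, SE 0.14), the lowest HET value being that of M4579 just above the highest WT value. Plekhh2, a cytoskeletal protein with pleckstrin homology and FERM domains, had 7.52, 8.96 and 11.6 cpm in WT and 11.8, 15.6 and 19.9 cpm in HET (log2 fold change 0.73, SE 0.15), and its groups did not overlap either.

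Gdpd3, a phosphodiesterase that releases lysophosphatidic acid from lysophospholipids, had the largest difference of the genes nearest to passing. Its levels were 0.17, 0.46 and 0.58 cpm in WT and 0.552, 5.38 and 11 cpm in HET, a log2 fold change of 3.64 (SE 0.75, adjusted p = 0.1385, and from 1.137e-25 to 0.6357 over the alternatives). The HET libraries lay at separate levels, with M4564, M4566, M4578, M4579 and M4628 between 4.94 and 11 cpm and M4577 and M4606 at 0.552 and 0.617 cpm, within or just above the WT range. The HOM libraries split in the same manner, with M4393, M4568, M4569 and M4627 between 5.4 and 9.71 cpm and M4575 and M4580 at 0.745 and 0.852 cpm.

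The predicted gene Gm5089 had the smallest unadjusted p of all, with 0.83, 1.08 and 1.54 cpm in WT and 1.8, 2.62 and 3.23 cpm in HET, a log2 fold change of 1.20 (SE 0.20, adjusted p = 0.1385). All 7 HET libraries lay above all 6 WT libraries. It overlaps Clybl on the other strand, with 0 exon bases shared. The uncharacterised transcripts 9230110C19Rik (log2 fold change 0.73) and 5330413P13Rik (1.25), the zinc finger gene Zfp811 (0.62) and the adhesion protein gene Pcdh19 (0.74) completed the 10 higher genes, with 6 or 7 of 7 HET libraries above the highest WT library in each.

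Among the lower genes, Cnr1 encodes the cannabinoid receptor that damps transmitter release from projection neuron and other terminals. Its level was 397, 618 and 747 cpm in WT and 119, 227 and 530.2 cpm in HET, a log2 fold change of -1.34 (SE 0.29, adjusted p = 0.1498). HET M4579, at 530.2 cpm, was the sole HET library inside the WT range, and the other 6 lay below the lowest WT library. Acvrl1, a receptor for bone morphogenetic proteins known from vessels, had 34.7, 41.3 and 60.2 cpm in WT and 12.2, 20.1 and 34.3 cpm in HET (log2 fold change -1.09, SE 0.22, adjusted p = 0.1385). No HET library reached the lowest WT library, though M4628 came within 1 cpm of it. Nrgn encodes neurogranin, which binds calmodulin in dendritic spines, and had 913, 1359 and 1910 cpm in WT and 512, 663 and 1129 cpm in HET (log2 fold change -0.93, SE 0.21), with 6 of 7 HET libraries below the lowest WT library and M4579 again inside the range.

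Il1rapl2, a synaptic relative of the interleukin receptor accessory protein, had 9.08, 10.5 and 11.2 cpm in WT and 6.04, 6.63 and 8.71 cpm in HET (log2 fold change -0.57, SE 0.11), with no overlap. The corepressor gene Tle6 (-1.07) and the uncharacterised 4632428C04Rik (-1.04) also had every HET library below every WT library, whereas the tubulin ligase gene Ttll11 (-0.52), the membrane-anchored ubiquitin-like Ubl3 (-0.41) and the phosphatase gene Ptpn7 (-1.06) had 6 of 7 below, with M4579 as the exception in each. Over all genes tested, 31 (0.214%) had every HET library above every WT library and 31 (0.214%) every HET library below. All 19 genes described kept their sign without the 3 HET libraries that stood apart or without all 5. They were chosen with all HET libraries on 1 side of the WT mean, so leaving out HET libraries could hardly change a sign. Their highest adjusted p over the alternatives was 0.6356 or 0.6357. All 19 passed in the likelihood ratio test (highest adjusted p 0.06944, Il1rapl2) and in DESeq2 (highest adjusted p 0.01163, Cnr1). These tests called 1242 and 535 of all genes, on the same counts from which the 19 were chosen by small p. The calls are thus not independent support. Without all 5, log2 fold changes of 3 genes were smaller by over 1.5 times, Pcdh19 (0.42), 5330413P13Rik (0.79) and Ttll11 (-0.33).

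**Figure D2:**
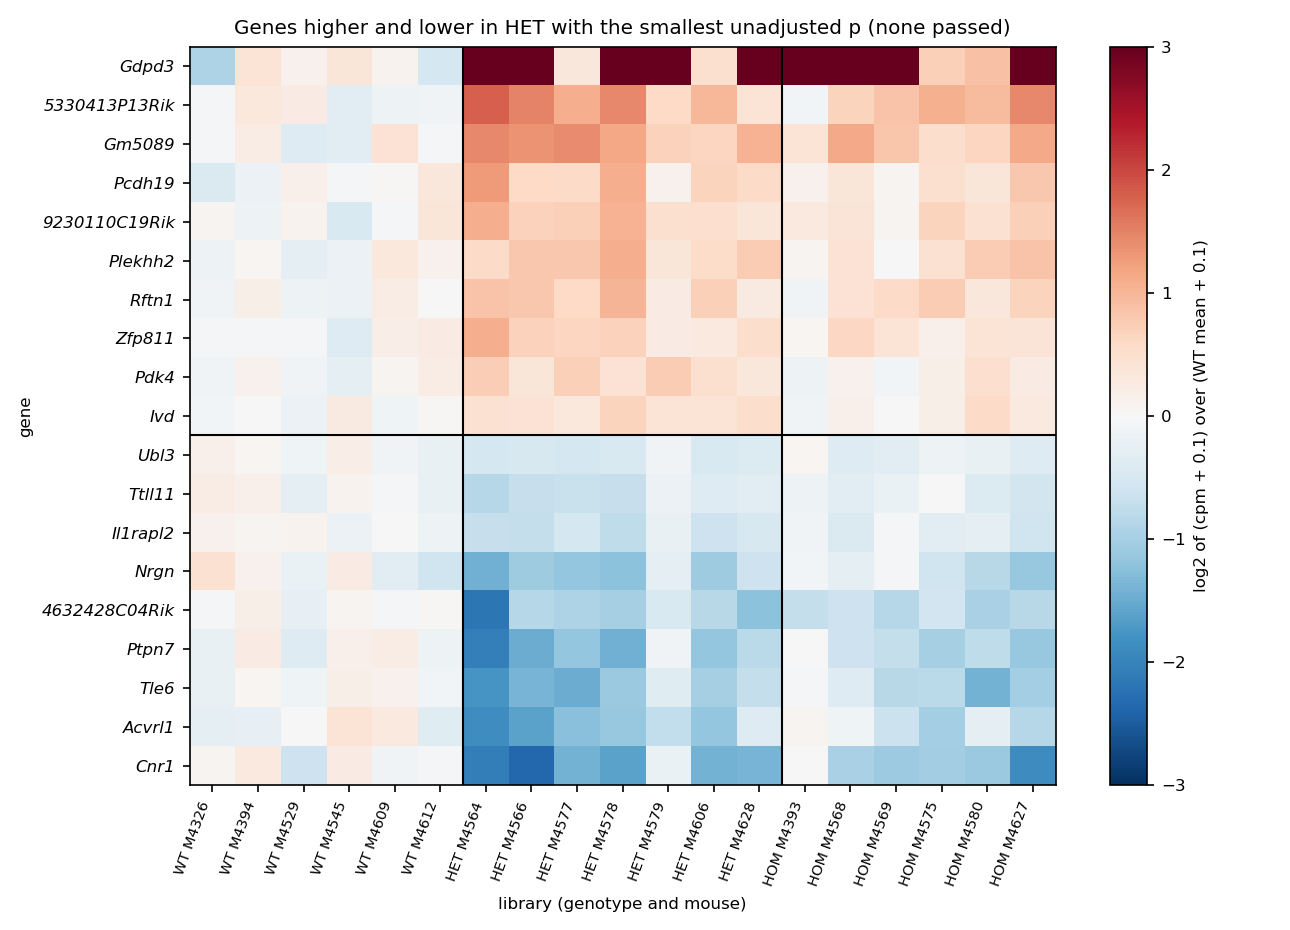
Level of 19 of the genes nearest to passing in each library, as log2 of cpm plus 0.1 over the WT mean plus 0.1, with genotypes and directions divided by lines and the colour scale ending at 3 in either direction. HET M4579 is paler than the other HET libraries for most of the lower genes, and Gdpd3 is dark in 5 of 7 HET and 4 of 6 HOM libraries.

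All 21 projection neuron genes of the list shared by both pathways had a log2 fold change below 0, with a median of -0.41 and 16 of 21 at an unadjusted p under 0.05, where 7.71% of all genes were lower at that level. Their summed level was 16640, 20440 and 23330 cpm in WT and 10900, 14020 and 20350 cpm in HET (lowest, median, highest). HET M4564, M4566, M4577 and M4578 lay below the lowest WT library, and M4579, M4606 and M4628 lay within the WT range. Without the 3 libraries that stood apart the median was -0.25, with 19 of 21 below 0 and 6 at an unadjusted p under 0.05. In that setting 413 of all 14376 genes tested were lower at that level. The sum was thus low in all 3 of the libraries with choroid plexus or septal RNA and also in M4577, whose sums for those lists were in the WT range. How far tissue next to the striatum entered into these values was not tested, and in bulk tissue fewer cells of a type and less RNA per cell cannot be told apart.

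Within that list, Ppp1r1b, which encodes the dopamine-regulated phosphatase inhibitor DARPP-32, had 2068, 2867 and 3316 cpm in WT and 1275, 1768 and 2579 cpm in HET, a log2 fold change of -0.58 (SE 0.16, adjusted p = 0.1754). Of the 7 HET libraries, 5 lay below the lowest WT library. Ptpn5, the striatal-enriched tyrosine phosphatase, had 882, 919.8 and 1027 cpm in WT and 606, 700.5 and 918 cpm in HET (log2 fold change -0.35, SE 0.09). For Ptpn5, M4579 was the sole HET library within the WT range. Without the 3 libraries the log2 fold changes of these genes were -0.39 and -0.25.

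The direct pathway list had 8 of 9 genes below 0 (median -0.26), with 3 lower and 1 higher at an unadjusted p under 0.05. Drd1, the receptor through which dopamine excites these cells, had 347, 368 and 441 cpm in WT and 253, 298 and 426 cpm in HET, a log2 fold change of -0.26 (SE 0.12, adjusted p = 0.2674). Tac1, the precursor of substance P, had 258, 349 and 382 cpm in WT and 185, 213 and 384 cpm in HET (log2 fold change -0.46, SE 0.17). HET M4579 was above every WT library for Tac1 while the other 6 were below all of them, and for Drd1 5 HET libraries lay below the WT range. Chrm4, a muscarinic receptor that opposes Drd1 signalling, had a log2 fold change of -0.48. The median of this list was -0.12 without the 3 libraries that stood apart, with 1 gene lower and 1 higher at an unadjusted p under 0.05, and Drd1 and Chrm4 were then at -0.12 and -0.32.

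The exception was Pdyn, which encodes the precursor of dynorphin. Its level was 116, 128 and 171 cpm in WT and 149.6, 169 and 215 cpm in HET, a log2 fold change of 0.40 (SE 0.12, adjusted p = 0.1754). HET M4566, M4577 and M4578 lay above every WT library, and all 7 HET libraries above the WT median, so that 3 of the 4 libraries with the lowest projection neuron sums had the highest Pdyn levels. The log2 fold change of Pdyn was 0.31 without the 3 libraries that stood apart and 0.21 without all 5. Without all 5, the direct pathway list had 0 genes higher and 1 lower at an unadjusted p under 0.05.

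For the indirect pathway, 7 of 8 genes were below 0 (median -0.27), 5 of them at an unadjusted p under 0.05. The summed level was 3251, 3841 and 4693 cpm in WT and 2310, 2811 and 4024 cpm in HET, and M4579 was the sole HET library that reached the WT range. Drd2, the inhibitory dopamine receptor, had 178, 209 and 229 cpm in WT and 104, 139.8 and 218 cpm in HET (log2 fold change -0.38, SE 0.14, adjusted p = 0.2088). Adora2a, the adenosine receptor that opposes it in the same cells, had 428, 526 and 669 cpm in WT and 267, 339.9 and 605 cpm in HET (log2 fold change -0.43, SE 0.16, adjusted p = 0.2194), and Penk, the enkephalin precursor, 2244, 2881 and 3531 cpm in WT and 1603, 2044 and 2942 cpm in HET (log2 fold change -0.44, SE 0.16). Groups overlapped for all 3 genes, Drd2 with 4 and Adora2a and Penk with 5 of 7 HET libraries below the lowest WT library. By the likelihood ratio test the adjusted p was 0.0397 for Drd2, 0.0159 for Adora2a and 0.0217 for Penk. By DESeq2 it was 0.1257, 0.1342 and 0.1226 in the same order. Without the 3 libraries that stood apart the log2 fold changes were -0.16, -0.20 and -0.33, and the median of the list was -0.16 with 0 genes at an unadjusted p under 0.05.

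**Figure D3:**
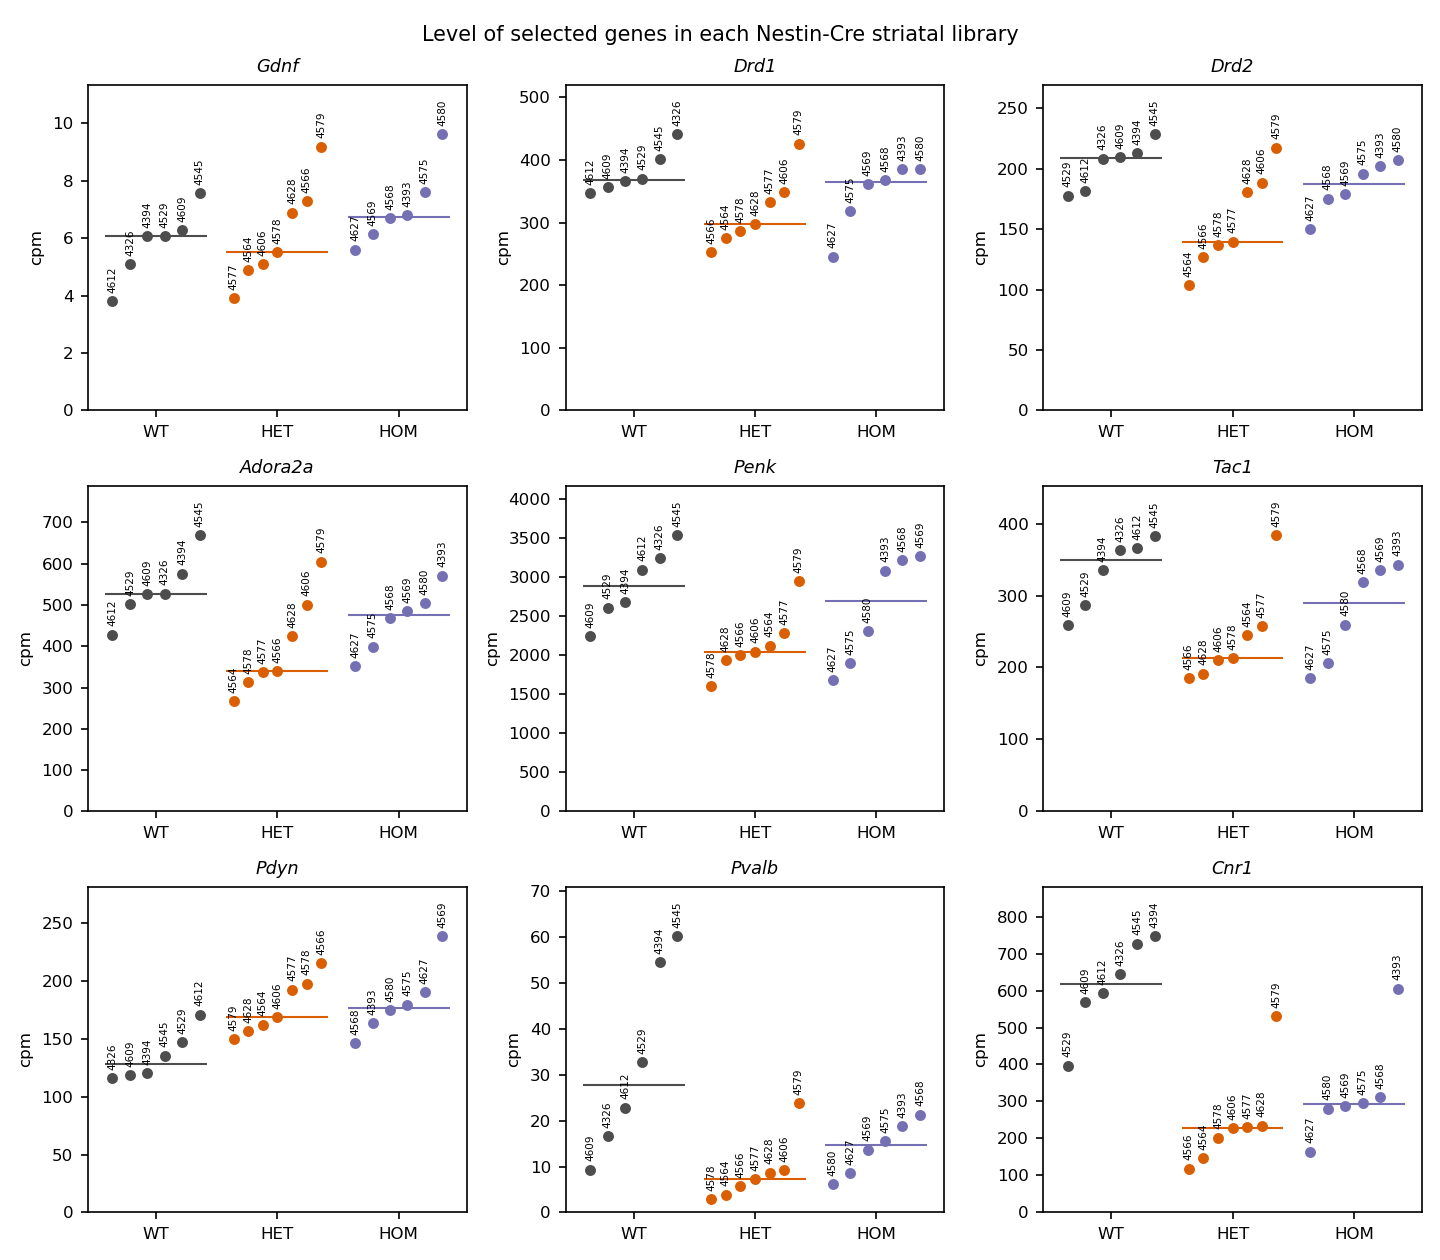
Level in cpm of Gdnf and of 8 striatal genes in each Nestin-Cre striatal library, by genotype, with mouse numbers beside the points and a line at each group's median. HET M4579 lies near the top of its group for Drd1, Drd2, Adora2a, Penk, Tac1, Pvalb and Cnr1, and 6 of 7 HET libraries lie below all WT libraries for Tac1, Pvalb and Cnr1.

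The list of dopamine receptors and their effectors, 10 of whose 21 genes are also in the projection neuron list, had 19 of 20 tested genes below 0 (median -0.22), with 10 lower and 1 higher at an unadjusted p under 0.05. With the 3 libraries that stood apart left out, 17 of 20 were below 0 (median -0.11), with 5 lower and 0 higher. Rgs4, which speeds the shut-off of G-protein signals, had 893, 1221 and 1517 cpm in WT and 502, 622 and 982 cpm in HET, a log2 fold change of -0.77 (SE 0.21, adjusted p = 0.1754), with 5 HET libraries below the lowest WT library. It was the sole one of 17 tested RGS genes at an unadjusted p under 0.05, and the median of that family was -0.03. Among 20 tested cyclic nucleotide phosphodiesterases (median 0.06), the 3 that were lower at that level, Pde1b (-0.43), Pde7b (-0.28) and Pde10a (-0.41), degrade cyclic nucleotides in projection neurons, and 2 were higher. For Pde10a the levels were 1584, 1699 and 2043 cpm in WT and 759, 1273 and 1829 cpm in HET, and without the 3 libraries the 3 log2 fold changes were -0.25, -0.12 and -0.14, with 1 gene of the family lower at an unadjusted p under 0.05.

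Of the 10 tested genes of adenosine receptors and handling, 4 were above and 6 below 0 (median -0.06), with 3 lower and 1 higher at an unadjusted p under 0.05. Besides Adora2a, the lower ones were Nt5e, which makes adenosine outside the cell (-0.47), and the inhibitory receptor Adora1 (-0.35). These were at -0.20 and -0.12 without the 3 libraries, and the list then had a median of -0.004 with 0 lower and 1 higher. In the endocannabinoid list 4 of 6 genes were below 0 (median -0.12), and Cnr1 alone was at an unadjusted p under 0.05. The median of this list was -0.06 without the 3 libraries and -0.04 without all 5, with 1 gene lower in both settings. Neuropeptides and their receptors were divided, 11 of 19 above 0 (median 0.10), with 4 higher and 3 lower at that level, and 1 higher and 0 lower without the 3 libraries. Crh, the corticotropin-releasing hormone, had 0.85, 2.12 and 5.83 cpm in WT and 1.75, 6.24 and 9.28 cpm in HET (log2 fold change 1.21, SE 0.43, and 0.77 without the 3 libraries), with 4 HET libraries above the WT range.

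Receptor and channel families did not share 1 direction. Of 64 tested potassium channel genes, 33 were above and 31 below 0 (median 0.02), with 4 higher and 8 lower at an unadjusted p under 0.05, where 9.63% of all genes were higher and 7.71% lower. The leak channel genes Kcnk2 (-0.56, SE 0.14) and Kcnk1 (-0.54, SE 0.14) each had 6 of 7 HET libraries below the lowest WT library, and Kcnd2, a channel of the A-type current, had a log2 fold change of -0.37. Kcnd2 was at -0.23 without the 3 libraries, where 42 of 63 channel genes were above 0 (median 0.07), with 4 higher and 3 lower at that level. For GABA synthesis, transport and receptors the counts were 14 above and 8 below 0 (median 0.15), 5 higher and 3 lower. Gabra4, a receptor subunit abundant in striatum, had 286, 312 and 351 cpm in WT and 189, 222 and 294 cpm in HET (log2 fold change -0.43), and Gad1, which makes GABA, 782, 823 and 975 cpm in WT and 592, 706 and 856 cpm in HET (log2 fold change -0.26). In both, 6 of 7 HET libraries lay below the WT range, while the subunit Gabre, at or below 2.723 cpm in every library, had a log2 fold change of 1.71. The GABA list had 2 higher and 2 lower genes without the 3 libraries (median 0.10), and Gabre was at 1.11.

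Glutamate receptors had 14 of 25 tested genes above 0 (median 0.05), with 1 higher and 1 lower at an unadjusted p under 0.05. The shares of all genes at that level were 9.63% higher and 7.71% lower. Gria4, an AMPA receptor subunit, was the lower one at -0.18 (SE 0.07). The NMDA receptor subunit Grin2b had 0.86 (SE 0.45), which was not at that level. That list had 18 of 25 above 0 without the 3 libraries (median 0.10), with 0 higher and 1 lower. Of 12 tested muscarinic and nicotinic receptors 9 were below 0 (median -0.17) and 4 of them at that level. These included Chrm1 (-0.20), the main muscarinic receptor of projection neurons, and the nicotinic subunit Chrna5 (-1.86), which was at or below 1.357 cpm throughout. Chrm1 was at -0.11 without the 3 libraries, with 7 of 12 below 0 (median -0.12) and 1 lower. The median of these receptors turned to 0.04 without all 5 libraries, with 6 above and 5 below 0. Serotonin receptors had 7 of 11 above 0 (median 0.05), 4 higher and 1 lower. Htr2c, the most abundant, had 72.6, 106 and 143 cpm in WT and 102, 149 and 201 cpm in HET (log2 fold change 0.47, SE 0.16), with 4 HET libraries above the WT range, and Htr1a had a log2 fold change of 0.65. For these genes it was 0.29 and 0.36 without the 3 libraries, where 9 of 11 were above 0 (median 0.18) and 1 was higher.

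Of 16 interneuron genes 13 were below 0 (median -0.27) and 4 of those at an unadjusted p under 0.05. The share of all genes lower at that level was 7.71%. Summed over the list the levels were 656, 684 and 705 cpm in WT and 474, 563 and 659 cpm in HET, and 6 of 7 HET libraries lay below all WT libraries. Pvalb, the calcium buffer of the fast-spiking interneurons that make most striatal GDNF, had 9.32, 27.8 and 60.2 cpm in WT and 2.89, 7.28 and 23.8 cpm in HET, a log2 fold change of -1.90 (SE 0.46, adjusted p = 0.1754). HET M4579 lay inside the wide WT range and the other 6 below it, M4606 by a narrow margin. Without the 3 libraries that stood apart it was -1.43, and the median of the list was -0.12 with 12 of 16 below 0 and 1 at an unadjusted p under 0.05.

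Npy, a peptide of the low-threshold interneurons, had a log2 fold change of -0.50, its partner Sst -0.21, and Slc18a3, the vesicular acetylcholine transporter, -0.37 (-0.21 without WT M4545). Th, which marks a small class of striatal interneurons besides dopamine neurons, had 10.8, 14 and 15.4 cpm in WT and 10.1, 12.2 and 15.4 cpm in HET (log2 fold change -0.11, SE 0.13). With 1 library left out at a time, the value of Th ran from -0.18 (without HET M4577) to -0.07 (without HET M4628). Of the 8 striosome and matrix genes 5 were below 0 (median -0.12) and 1 was higher at an unadjusted p under 0.05, the toxin-like regulator of nicotinic receptors Lypd1 (0.39), while the striosome marker Kremen1 had -0.36. With the 3 libraries that stood apart left out, Lypd1 was at 0.18, Kremen1 at -0.16, Npy at -0.33 and Sst at -0.13, and the striosome and matrix list had a median of -0.004 with 0 genes at that level. Without all 5, Lypd1 was at 0.07, Kremen1 at -0.03, Npy at -0.40 and Sst at -0.10.

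Genes that mark tissue next to the striatum mostly had log2 fold changes above 0 in HET, and their sums came from few libraries. All 11 tested choroid plexus genes were above 0 and at an unadjusted p under 0.05 (median 2.62), against 9.63% of all genes higher at that level. The sum was 279, 408 and 624 cpm in WT and 254, 372 and 22260 cpm in HET, the highest being M4566, and without that library the median was 0.23. Sostdc1, a secreted inhibitor of bone morphogenetic protein and Wnt signals, had 0.376, 1.17 and 2.04 cpm in WT and 0.605, 1.3 and 70 cpm in HET, and the transcription factor Otx2 0.626, 1.5 and 2.27 cpm in WT and 0.847, 1.9 and 39.5 cpm in HET. The phospholipase Enpp2, the most abundant of the list and also made by oligodendrocytes, had 3352 cpm in M4566 and 185 to 354 cpm in the other HET libraries. Prlr, the prolactin receptor, differed from the rest of the list in that 6 of 7 HET libraries lay above the WT range of 1.19 to 5.673 cpm (log2 fold change 2.52, and 1.32 without the 3 libraries).

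Septal and pallidal genes had 5 of 6 above 0 (median 0.72) and 3 higher at an unadjusted p under 0.05, and without the 3 libraries the median was 0.14 with 1 higher. Zic1, a transcription factor of the septum, had 9.18, 13.7 and 15.3 cpm in WT and 11.9, 14.9 and 73.3 cpm in HET, with M4564 (73.3 cpm) and M4578 (58.9 cpm) far above the other 5 HET libraries. Its neighbour Zic4 (1.22) and the channel gene Trpc4 (0.98) had log2 fold changes of like size, 0.14 and 0.13 without the 3 libraries. All 6 ependymal genes were above 0 (median 0.75), 2 of them, the cilium genes Dynlrb2 (1.25) and Rsph1 (0.84), at an unadjusted p under 0.05, and without the 3 libraries the median was -0.07 and these genes were at 0.06 and 0.03. Their sum was 13.2, 32.7 and 38.7 cpm in WT and 17.4, 37.6 and 104 cpm in HET.

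Immature and olfactory bulb neurons had 10 of 12 tested genes above 0 (median 0.41, 2 higher and 1 lower at an unadjusted p under 0.05), and the median was 0.05 without the 3 libraries, with 0 higher and 1 lower. Dcx, a microtubule protein of migrating neurons, had a log2 fold change of 0.60, and the homeobox genes Dlx1 and Dlx6 had 0.94 (0.36 without the 3 libraries) and -0.31. Cortical excitatory genes went the other way, 10 of 11 below 0 (median -1.24), with 0 of 11 at an unadjusted p under 0.05 in the quasi-likelihood test and 7 called lower by the likelihood ratio test. Neurod6 had 0.313, 5.53 and 28.3 cpm in WT and 0.201, 0.903 and 7.03 cpm in HET and Neurod2 0.313, 2.97 and 11.4 cpm and 0.268, 1.05 and 4.37 cpm, WT M4326 and M4609 being the highest, and without all 5 libraries that stood apart the median of the list was 0.42. Thalamic genes had 5 of 7 above 0 (median 0.22), with the kinase gene Prkcd higher (0.83, and 0.09 without the 3 libraries) and the troponin gene Tnnt1 lower (-0.96). Without those 3 libraries the thalamic median was 0.09 with 0 genes at that level. The 3 tested dentate gyrus genes had a median of 0.43 and 0 at that level.

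Astrocyte genes had 10 of 18 above 0 (median 0.05), with 4 higher and 1 lower at an unadjusted p under 0.05. The shares of all genes at that level were 9.63% higher and 7.71% lower. Gja1, the main gap junction protein of astrocytes, had 219, 231 and 253 cpm in WT and 228, 298 and 386 cpm in HET, a log2 fold change of 0.39 (SE 0.11, adjusted p = 0.1754). Of the HET libraries 6 lay above the WT range and M4566 within it. The glutamate transporter gene Slc1a3 had a log2 fold change of 0.28 and the glycolytic Aldoc -0.28, so the list held both directions. Astrocyte genes had 14 of 18 above 0 (median 0.12), 3 higher and 0 lower without the 3 libraries. In microglia 16 of 18 genes were below 0 (median -0.17), with 4 lower at an unadjusted p under 0.05, among them C1qa, which starts the complement cascade (-0.33, SE 0.10), the surface protein gene Tmem119 (-0.31) and the adaptor gene Tyrobp (-0.36). Of these genes Tmem119 was at -0.18 without the 3 libraries, and the microglia list had 13 of 18 below 0 (median -0.08) with 2 lower.

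Mature oligodendrocyte and myelin genes had 21 of 28 below 0 (median -0.12) and 0 at an unadjusted p under 0.05, and Mbp, myelin basic protein, had 2664, 3758 and 6365 cpm in WT and 2755, 3057 and 5094 cpm in HET (log2 fold change -0.23). WT M4394 had the highest sum of this list, and without it the median turned to 0.01 and Mbp was at -0.05. The precursor list had 11 of 13 above 0 (median 0.08) and 2 higher at that level, Gpr17, a receptor of cells about to differentiate (0.34, SE 0.11), with 5 HET libraries above the WT range, and Pdgfra, the growth factor receptor of the precursors (0.28, SE 0.10). Neither moved by more than 0.02 without the 3 libraries that stood apart (0.33 and 0.29), though 7 of 13 genes of the list were then above 0.

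Vessel and matrix genes mostly had log2 fold changes above 0. Endothelial genes had 11 of 15 above 0 (median 0.22) with 0 at an unadjusted p under 0.05, with the VEGF receptors Flt1 at 0.73 and Kdr at 0.58. HET M4628 held 61.6 cpm of Flt1 and the other 6 HET libraries 13.2 to 37.4 cpm. Flt1 was at 0.385 and the endothelial median at 0.11 without M4628. WT M4609 held 34.4 cpm of Flt1 and 15 cpm of Kdr, above the other 5 WT libraries, and without it Flt1 was at 1.095, Kdr at 0.94 and the median at 0.395. The number of endothelial genes at that level ran from 0 to 9 with 1 library left out at a time. Mural and leptomeningeal genes had 14 of 16 above 0 (median 0.31) and 4 higher at that level, including Pdgfrb of pericytes (0.36) and Igf2, with 1 higher without the 3 libraries. Igf2 had 568.3 cpm in HET M4566 and 31.03 to 78.32 cpm in the other 6 HET libraries, inside the WT range of 18.83 to 92.73 cpm. Its log2 fold change was 1.41, and 0.21 without M4566. Of 39 tested collagen genes 31 were above 0 (median 0.39), with 13 higher and 1 lower at an unadjusted p under 0.05. Col6a1, the most abundant, had 93.2, 169 and 242 cpm in WT and 177, 266 and 369.5 cpm in HET (log2 fold change 0.66, SE 0.24), and the basement membrane genes Col4a5 (1.07) and Col18a1 (1.23) each had 6 of 7 HET libraries above the WT range. Col19a1 was the lower one (-0.57). Without the 3 libraries the collagen median was 0.31, with 32 of 39 above 0 and 5 at an unadjusted p under 0.05, Col18a1 at 0.81 and Col19a1 at -0.32. In the blood list the haemoglobin genes Hba-a1 and Hbb-bs are at 0 in every WT and HET library, 1 gene of 5 was tested, and this gene, the red cell haem synthase Alas2, had a log2 fold change of 0.00.

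**Figure D4:**
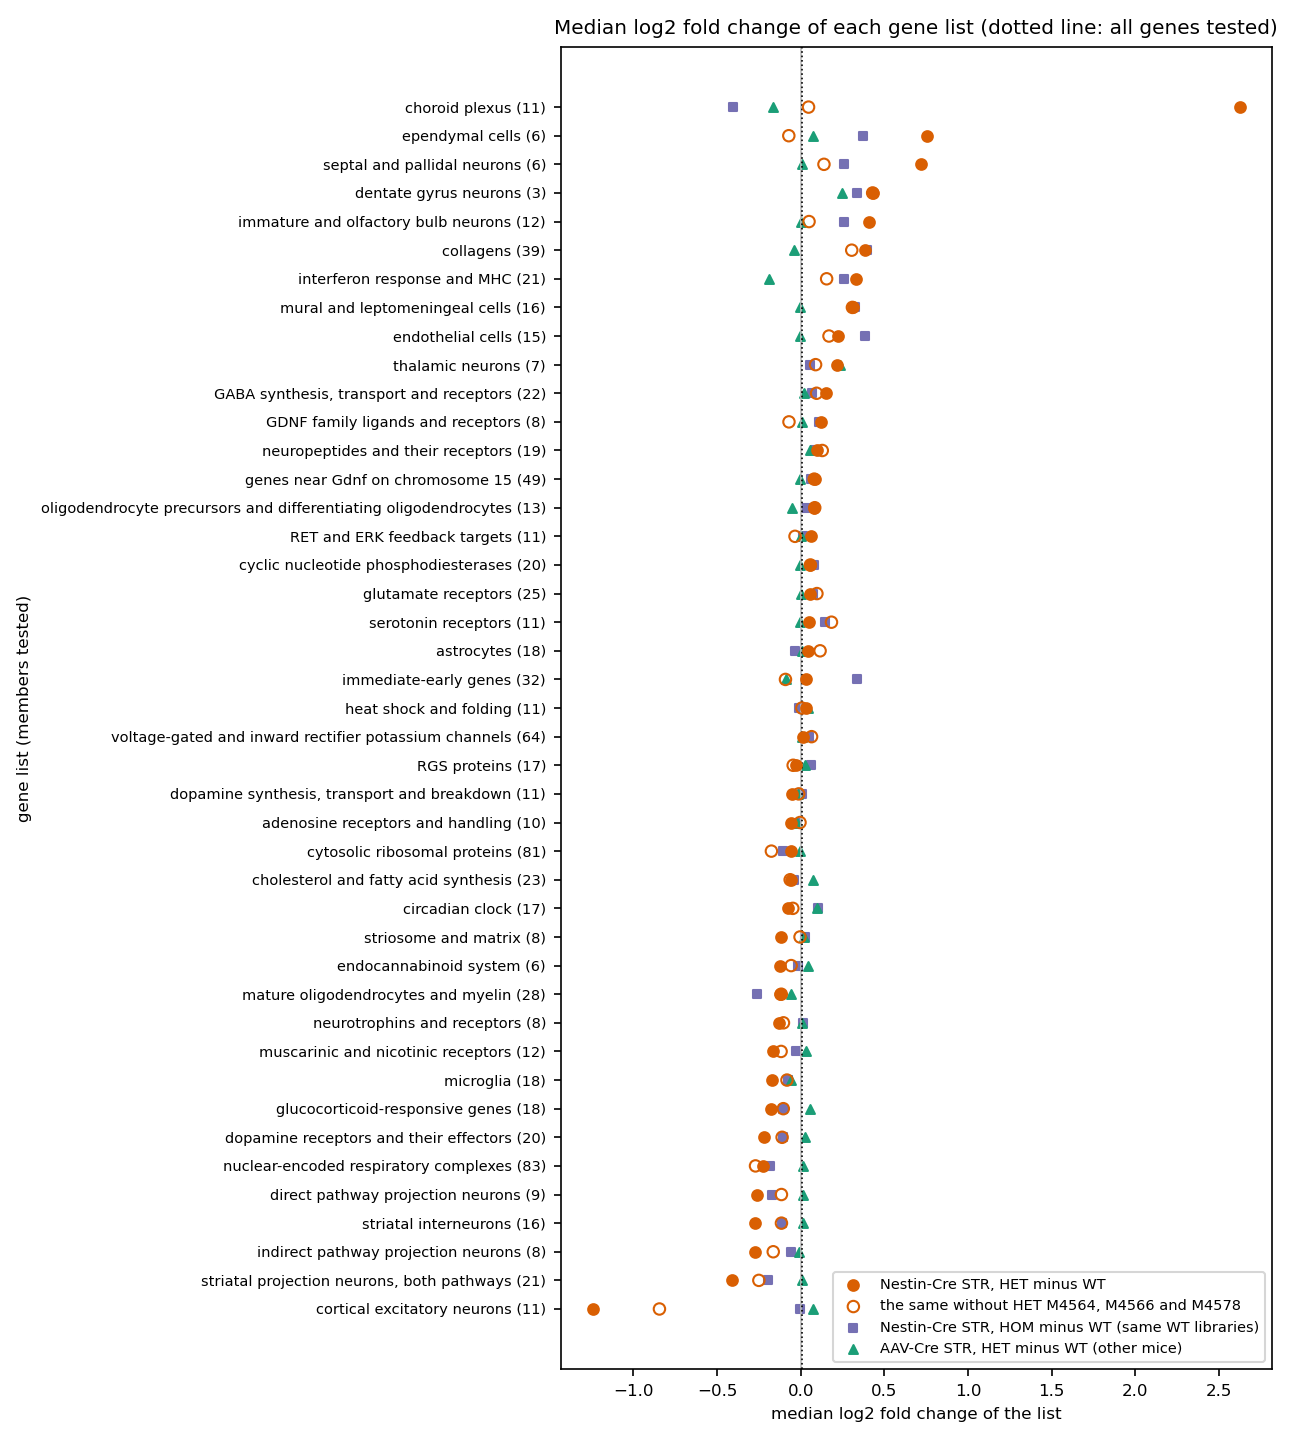
Median log2 fold change of each gene list with 3 or more tested members (number tested in brackets) in HET minus WT, in the same without 3 HET libraries, in HOM minus WT, which shares the WT libraries, and in HET minus WT of AAV-Cre striatum. The dotted line marks the median of all genes, 0.01. The choroid plexus, ependymal and septal medians lie near 0 without the 3 libraries, and that of projection neurons lies at -0.25.

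Of 8 tested ligands and receptors of the GDNF family 5 were above 0 (median 0.12) and 1 was higher at an unadjusted p under 0.05, Ncam1, which had 298, 310.4 and 338 cpm in WT and 310, 362 and 392 cpm in HET (log2 fold change 0.17, SE 0.07). That count was 0 without the 3 libraries that stood apart, where 3 of 8 were above and 5 below 0 (median -0.07) and Ncam1 was at 0.13. In the full fit 9.63% of all genes were higher at that level. The co-receptor Gfra1 had 44.8, 61.1 and 73.1 cpm in WT and 54, 70.7 and 103 cpm in HET (log2 fold change 0.32, SE 0.16, adjusted p = 0.3101), and the persephin co-receptor Gfra4 -0.21. Ret had 1.87, 4.29 and 6.83 cpm in WT and 2.9, 4.42 and 15.6 cpm in HET, a log2 fold change of 0.78 (SE 0.46, adjusted p = 0.374). The high Ret values were those of M4564 and M4578, the libraries with septal genes, and without the 3 libraries its log2 fold change was -0.06, with Gfra1 at 0.19 and Gfra4 at -0.14. Gfra1 shares 101 exon bases with Gm10007 on the other strand, and whether reads were counted by strand is not given in the sources used here.

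RET acts through the ERK cascade, which induces its own inhibitors. Of 11 such targets 6 were above and 5 below 0 (median 0.06), with 1 higher and 1 lower at an unadjusted p under 0.05, the phosphatase gene Dusp4 (0.74, SE 0.32) and the RTK inhibitor Spry2 (-0.36, SE 0.14), and Dusp6 had -0.42. Both counts are near the shares of all genes at that level, 9.63% higher and 7.71% lower. Of these targets 5 were above and 6 below 0 without the 3 libraries (median -0.03), with 0 higher and 1 lower. For dopamine synthesis, transport and breakdown 5 of 11 tested genes were above 0 (median -0.05) and 3 higher at that level, 0 of them without the 3 libraries. The vesicular transporter Slc18a2 had 0.737, 1.39 and 3.46 cpm in WT and 1.33, 2.21 and 14.5 cpm in HET (log2 fold change 1.59), with M4564 and M4578 far above the rest, and 0.03 without the 3 libraries. Ddc, which makes dopamine from its precursor, had 0.44 and 0.19, and the monoamine oxidase gene Maob 0.17 and 0.13. Neurotrophins and their receptors had 3 of 8 tested above 0 (median -0.13), and Bdnf, a peptide supplied mainly by cortex, had -1.41 (SE 0.76). Its highest levels were in WT M4326 (12.6 cpm) and WT M4609 (7.15 cpm), the libraries with cortical markers. The log2 fold change of Bdnf was -0.62 without M4326 and turned to 0.695 without all 5 libraries that stood apart.

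Of the lists for cell state, immediate-early genes had 18 of 32 tested above 0 (median 0.03), with 2 higher and 4 lower at an unadjusted p under 0.05. The shares of all genes at that level were 9.63% higher and 7.71% lower. Homer1, a scaffold of the postsynapse, had 215, 247 and 281 cpm in WT and 157, 181 and 224 cpm in HET (log2 fold change -0.39, SE 0.10), with 5 HET libraries below the WT range. Ier5 had -0.48 and the stress sensor Gadd45g 0.38. Gadd45g was at 0.18 without the 3 libraries, and 14 of 32 immediate-early genes were then above 0 (median -0.09), 0 higher and 2 lower. Glucocorticoid-responsive genes had 14 of 18 tested below 0 (median -0.17), 1 higher (Pdk4) and 2 lower, the chaperone gene Fkbp5 (-0.34) and the metallothionein gene Mt2 (-0.33). Clock genes had 15 of 17 below 0 (median -0.08), 1 higher, the repressor Nfil3 (0.32), and 2 lower, the activator Hlf (-0.41) and the repressor Ciart (-0.77). The glucocorticoid list had 1 higher and 0 lower without the 3 libraries (median -0.10) and the clock list 0 of either (median -0.05), Hlf being at -0.27. With 1 library left out at a time, the glucocorticoid median ran from -0.27 (without WT M4609) to -0.05 (without WT M4394). That of the clock list ran from -0.17 (without WT M4612) to -0.07, with 1 to 6 genes at an unadjusted p under 0.05.

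In the heat shock list 7 of 11 genes were above 0 (median 0.03) and Hspa1b alone was at an unadjusted p under 0.05. This inducible chaperone had 0.413, 0.531 and 0.964 cpm in WT and 0.514, 2.61 and 4.94 cpm in HET (log2 fold change 2.23, SE 0.53, and 1.19 without the 3 libraries), with 5 HET libraries above the WT range, and its value is uncertain because Hspa1a is a near-identical copy. Interferon response and MHC genes had 20 of 21 above 0 (median 0.33) and 3 higher, among them the RNA sensor Ddx58 (0.50, SE 0.13) and the peptide transporter Tap1 (0.54). The share of all genes higher at that level was 9.63%. Without the 3 libraries the median was 0.16, with 19 of 21 above 0 and Tap1 at 0.36. The interferon median was 0.18 without HET M4577 alone. For cholesterol and fatty acid synthesis 16 of 23 were below 0 (median -0.06), 2 of them at that level, the sterol sensor partner Insig1 (-0.35) and the squalene synthase Fdft1 (-0.26), against 0 lower and 2 higher without the 3 libraries. The 2 of 23 are near the 7.71% of all genes that were lower at that level.

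Of 83 tested nuclear-encoded respiratory genes 79 were below 0 (median -0.22) and 9 were lower at an unadjusted p under 0.05, where 7.71% of all genes were lower at that level, with the complex I genes Ndufs3 (-0.31) and Ndufb8 (-0.29) and the ATP synthase gene Atp5b (-0.25) among them. The number at that level ran from 1 to 27 with 1 library left out at a time, and was 1 lower and 1 higher without the 3 libraries, with 79 below 0 (median -0.27). Of 81 tested cytosolic ribosomal protein genes 68 were below 0 (median -0.06) and 0 were at that level, Rps18 having -0.29. All 81 were below 0 without the 3 libraries (median -0.17), and 1 was lower. Which genes within 10 Mb of Gdnf on chromosome 15 were inherited with the allele was not tested. Of 49 such genes tested, 30 were above 0 (median 0.09). At an unadjusted p under 0.05, where 9.63% of all genes were higher and 7.71% lower, 10 of these were higher and 4 lower. There were 5 higher and 0 lower without the 3 libraries. Besides Prlr, these included Ghr, the growth hormone receptor (0.31, SE 0.09), and the phospholipase gene Plcxd3 (1.11, SE 0.38).

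Other list medians also depended on single libraries. With 1 library left out at a time, they ran from -0.02 to 0.11 for astrocytes, -0.002 to 0.14 for oligodendrocyte precursors, -0.13 to 0.02 for dopamine synthesis, -0.008 to 0.20 for serotonin receptors, -0.05 to 0.11 for immediate-early genes, -0.006 to 0.11 for heat shock genes, -0.08 to 0.001 for RGS proteins and -0.03 to 0.05 for potassium channels, so that in these lists the direction turned. Medians kept their direction but moved by over 1.5 times for ependymal genes (0.42 to 0.89), immature neurons (0.20 to 0.53), thalamic genes (0.08 to 0.26), dentate gyrus genes (0.21 to 0.50), the GDNF family (0.07 to 0.16), GABA genes (0.095 to 0.18), muscarinic and nicotinic receptors (-0.23 to -0.09), striosome and matrix genes (-0.15 to -0.05), neurotrophins (-0.19 to -0.055), cytosolic ribosomal proteins (-0.17 to -0.004) and genes near Gdnf (0.04 to 0.13). The same held for adenosine genes (-0.09 to -0.03), cholesterol and fatty acid synthesis (-0.09 to -0.03), phosphodiesterases (0.03 to 0.10), glutamate receptors (0.03 to 0.09), neuropeptides (0.03 to 0.12) and ERK targets (0.008 to 0.11). Without all 5 libraries that stood apart, the direction also turned for striosome and matrix genes (0.07), thalamic genes (-0.03), oligodendrocyte precursors (-0.02) and RGS proteins (0.05). In that setting it turned as well for the GDNF family (-0.008) and ERK targets (-0.007).

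The number of genes at an unadjusted p under 0.05 moved likewise when 1 library was left out at a time. It ran from 13 to 18 for projection neurons and 10 to 14 for collagens, but from 3 to 6 for the direct and 3 to 5 for the indirect pathway, 7 to 12 for dopamine receptors and effectors, 2 to 6 for interneurons and 1 to 7 for microglia. For potassium channels it ran from 7 to 20, for genes near Gdnf from 8 to 18, for GABA genes from 6 to 11, for neuropeptides from 4 to 9, for phosphodiesterases from 2 to 6, for serotonin and for muscarinic and nicotinic receptors from 2 to 5 each, and for immediate-early genes from 2 to 8. Glucocorticoid-responsive genes had 2 to 6, interferon and MHC genes 1 to 4, mural genes 1 to 5, dopamine synthesis 1 to 4, immature neurons 2 to 5, cortical genes 0 to 5, choroid plexus genes 1 to 11, and septal, striosome, ribosomal and GDNF family genes 0 to 3 each. Thalamic genes, glutamate receptors, ERK targets and cholesterol and fatty acid synthesis had 1 to 3 each.

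HOM and HET mice were compared with each other, so that the fold change uses no WT level. The WT libraries still entered the filter, the scaling and the estimate of the spread. Of the 14494 genes 0 passed in the quasi-likelihood test, 532 (3.67%) had an unadjusted p under 0.05, 187 were called by the likelihood ratio test and 0 by DESeq2. Against the WT libraries, which both comparisons share, HOM had 0 genes passing and 670 (4.62%) at an unadjusted p under 0.05. Side by side, HET and HOM had log2 fold changes of -1.34 and -0.92 for Cnr1, -1.90 and -1.22 for Pvalb, 3.64 and 3.73 for Gdpd3, 0.40 and 0.43 for Pdyn, -0.43 and -0.22 for Adora2a, and 0.56 and 0.16 for Pdk4. The list medians were -0.41 and -0.20 for projection neurons, 0.39 and 0.40 for collagens, and 2.62 and -0.41 for choroid plexus.

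Whether the HET difference was particular to striatum was tested as an interaction with region in largely the same mice. Against PFC (8 WT, 6 HET) 0 of 14890 genes passed, 939 (6.31%) had an unadjusted p under 0.05 and the likelihood ratio test called 385. With the mouse as a block 2 genes passed, named here after their values were seen, Pdyn with a difference of 0.78 (SE 0.12, edgeR adjusted p = 0.05998) and Dgkk, a diacylglycerol kinase gene, with 1.94 (SE 0.31, edgeR adjusted p = 0.05998). Without the block their adjusted p values were 0.5406 and 0.5619. The 8 WT libraries from PFC include that of M4575, whose label conflicts. Without this mouse 0 genes passed, and with the block the same 2 did, at an adjusted p of 0.06246 each. Pdyn had log2 fold changes of 0.40 in striatum and -0.29 in PFC. Against SN (6 WT, 7 HET) 0 of 15262 genes passed, 1302 (8.53%) had an unadjusted p under 0.05 and the likelihood ratio test called 394. The median of the projection neuron list was -0.41 in striatum, -0.33 in PFC and 0.60 in SN, regions in which its member Ppp1r1b had WT medians of 162 and 43.7 cpm.

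Adult mice with the same allele that received Cre by bilateral AAV-Cre injection into the striatum, and were 5 to 7 months old, share no library with the Nestin-Cre mice. In their striatum (7 WT, 7 HET) 0 of 14655 genes passed, 251 (1.71%) had an unadjusted p under 0.05 and the likelihood ratio test called 56. The test of the difference between the HET effects of both models called 1 of 14857 genes (0.00673%), and 2297 (15.5%) had an unadjusted p under 0.05, while the likelihood ratio test called 908. For the lists, the AAV-Cre medians were 0.01 for projection neurons, -0.01 for the indirect pathway, 0.02 for interneurons, -0.04 for collagens and -0.16 for choroid plexus. Gdnf had a log2 fold change of 0.20, Cnr1 -0.02, Pvalb 0.09, Gdpd3 -0.31 and Pdyn 0.11. Age, the route and the time of recombination all differ between the models and cannot be told apart.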

How the data were processed

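The authors deposited 1 table of raw counts per gene, with 121 libraries. Poly(A) RNA was made into stranded libraries and sequenced in single-end reads of 75 bases. By the submitters' processing notes, reads were written with bcl2fastq 2.20.0.422, aligned to mm10 with STAR 2.5.2b and counted in annotated exons with featureCounts 1.5.1. Whether the counting used strand is not given in the sources used here, and 6 genes carry no symbol.

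A gene was kept when 3 or more of the 19 Nestin-Cre striatal libraries reached 1 cpm. In R 4.3.3 with edgeR 4.0.16, counts were scaled by TMM and fitted with a trended dispersion, with genotype as the factor, and HET versus WT was tested by the two-sided quasi-likelihood F test, its p values adjusted by Benjamini-Hochberg over the genes kept, at a threshold of 0.1. Every adjusted p here comes from this test unless another is named. Levels are cpm on TMM-scaled library sizes. The SE of a log2 fold change is its size divided by the root of its F statistic. The steps were tested on simulated data. Region and model were tested as interaction terms in fits of their own, each with its own filter.

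The alternatives were the edgeR likelihood ratio test, DESeq2 1.42.0 and its size factors, other filters, robust empirical Bayes, fits on fewer or more libraries, each library left out in turn, a threshold of 0.05 and the mouse as a block. Striatal and PFC libraries of 15 mice deviated together from their group means (correlation 0.141 to 0.42, median 0.269, against a median of -0.0505 between different mice), and those of striatum and SN in 18 mice less evenly (-0.0895 to 0.553, median 0.238). The mouse numbers come from the labels. Leaving out 3 HET libraries, or 5 libraries, with markers of neighbouring tissue was added after seeing the data.

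The genes named are Gdnf, 10 fixed striatal genes (Drd1, Drd2, Adora2a, Penk, Tac1, Pdyn, Th, Pvalb, Ret and Gfra1), the genes that passed, and, since fewer than 10 passed in either direction, the 10 higher and 10 lower genes with the smallest unadjusted p, a mean level of 1 cpm or more, and all HET libraries on 1 side of the WT mean. Up to 4 members of each list, those with the lowest unadjusted p and the most abundant, were added. A few genes that this rule names are not reported here. The genes compared and the 44 gene lists, of cell types, receptors, channels, pathways and the genes near Gdnf, were chosen with earlier results of these data known, and they share members. Lists are described by counts and medians, with no test of their own. PFC and SN libraries of the AAV-Cre mice were not used here.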

Additional observations from a re-analysis of the deposited data

Results flagged for a closer look

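Each sum and each gene below has 1 library far from the others of its genotype, by a test on the gap to the nearest library over the range of the group. Of 152 group measures tested 11 were marked, where chance marks about 1 in 20, and the lists share members and libraries, so the marks do not count separately. HET M4579 was the highest HET library for the direct pathway sum (1306 cpm, next 1074), the indirect pathway sum (4024, next 3015), Cnr1 (530.2, next 234), Ubl3 (259.2, next 209), Tac1 (383.8, next 257) and Pvalb (23.77, next 9.15). For all 6 measures the other 6 HET libraries lay below every WT library. Why this mouse differed was not tested.

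HET M4566 was the highest HET library for the choroid plexus sum (22260 cpm, next 467) and for mural and leptomeningeal cells (809.6, next 389). HET M4628 was the highest for blood genes (4.895 cpm, next 2.84). In WT, M4545 stood apart for interferon response and MHC genes (196.3 cpm, next 164.6) and M4394 for mature oligodendrocyte and myelin genes (15210 cpm, next 10260).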

How the results depend on the processing

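The number of genes that passed in HET versus WT, 0 by the quasi-likelihood test, was also 0 with DESeq2 size factors, with no filter or a stricter filter, with robust empirical Bayes, at a threshold of 0.05, without mouse M4575, and without the 3 or the 5 libraries that stood apart, sets chosen after seeing the data. It was 1242 by the likelihood ratio test, 535 by DESeq2 with its own filter off or on, 8 with WT and HET libraries only, 1082 with all regions in 1 fit, and 0 to 667 when each library was left out in turn. The likelihood ratio test called 187 genes for HOM versus HET, 385 for striatum against PFC, 394 for striatum against SN, 908 against 1 for Nestin-Cre against AAV-Cre, and 56 for AAV-Cre HET versus WT. The likelihood ratio test took each gene's spread from the trend over all genes, whereas the quasi-likelihood test also estimated it gene by gene. Sostdc1, whose log2 fold change was 0.55 without HET M4566, had an adjusted p of 2.67e-30 in the likelihood ratio test and 0.5488 in DESeq2. How far this accounts for the numbers called was not tested.

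With the mouse as a replicate block the paired test of striatum against PFC called 2 genes where the unpaired one called 0, and that against SN called 0 in both forms, so no other call changed. Without mouse M4575, an alternative chosen after seeing the data, the PFC counts were 0 unpaired and 2 with the block.

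Of the values for named genes under the alternatives, 2947 kept their direction and side of the threshold, 359 kept their direction and passed, and 17 reversed, with signs read after rounding to 2 decimals. Alas2, at 0.00, thus has no sign of its own and ran from -0.20 to 0.20 with 1 library left out. Without the 3 HET libraries Ret (-0.063), Sostdc1 (-0.087) and Foxj1 (-0.19) reversed. Without the 5 libraries Ret (-0.375), Slc18a2 (-0.26), Neurod6 (0.50), Neurod2 (0.395), Prkcd (-0.086), Otx2 (-0.092), Enpp2 (-0.039), Bdnf (0.695) and Slc17a7 (0.41) did. Enpp2 was -0.11 in DESeq2 with its filter off or on and ran from -0.11 to 1.499 with 1 library left out, and Gdnf from -0.05 to 0.16. For these genes the cause was not tested. List medians moved by less than the spread between replicates in 693 settings and by more in 11. That spread is the standard deviation over HET libraries of each library's list median, which leaving out 1 library can hardly exceed. It is wide where single libraries stood apart. The ependymal median, 0.75 in full and -0.07 without the 3 HET libraries, thus counted as moving by less (spread 0.957). List counts were within 1.5 times the reported count in 487 settings and outside it in 217. The median log2 fold change of all genes, 0.01, lay between -0.004 and 0.014 throughout.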

Other observations

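Among the HOM striatal libraries, M4569 held a sum of 708 cpm over the cortical excitatory genes, with the other 5 at 307 cpm or below, and 886 cpm over the interneuron genes, with the other 5 at 646 cpm or below. HOM M4627 held 87.9 cpm over the septal and pallidal genes, with the other 5 at 56.5 cpm or below, and M4627 had the lowest direct pathway sum of the 6 (888 cpm).

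With WT and HET libraries only in the fit, the 8 genes that passed, named here after their values were seen, were Cfap46, a gene of the ciliary axoneme (log2 fold change 1.38, adjusted p = 0.00925), Acss3, a mitochondrial acyl-CoA synthetase gene (1.495), Ivd (0.47), Gm5089 (1.20), Il3ra, the interleukin 3 receptor subunit (1.60), Gdpd3 (3.64), Plekhh2 (0.73) and the cytochrome P450 gene Cyp2s1 (-0.73), the last 7 at an adjusted p of 0.09767. Across 5 settings that called many genes (the likelihood ratio test, DESeq2, all regions in 1 fit, without WT M4612 and without HET M4579), 147 genes were called in each, 76 higher and 71 lower in HET. The settings share most of their libraries, so these calls are not independent.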
